A study of Mus musculus with 24 samples.

Results

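The genes described here are 37 genes used as markers of microglia, the resident macrophages of the brain, read in RNA of cells sorted from the adult mouse hippocampus. They were chosen by symbol, and all 37 were found among the 48321 gene rows of the deposited count tables. The sorted cells were GFP-positive cells of adult C57BL/6 mice. CKO mice carried Hes5::CreERT2, the reporter Rosa26R-CAG::GFP and Notch2 flox/flox, and WT mice carried the same driver and reporter with Notch2 wt/wt. Both genotypes received Tamoxifen for 5 days and were sampled after a chase of 1 day, so Cre activity, Tamoxifen and GFP were common to both and the floxed Notch2 was the stated difference. The driver acts in cells that express Hes5, a Notch target gene of neural stem cells and other radial glia-like cells. Each genotype had 3 pools of animals, and each pool had 2 libraries that were each run on 2 lanes.

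Microglia descend from yolk sac progenitors and not from the neural stem cells in which Hes5 is active. They sense ATP, ADP and UDP from stressed cells through purinergic receptors, depend on the receptor Csf1r for survival, and produce the C1q chains that start the classical complement cascade. The factors Spi1 (PU.1), Irf8 and Sall1 set up this identity, and the signalling adapter Tyrobp pairs with receptors such as Trem2.

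All 37 genes had reads, and all passed the filter on low counts that left 21477 genes in the test. Levels are given in CPM, the usual scaling of a read count to the depth of its library, here the reads in genes at library sizes scaled by the trimmed mean of M values (TMM). The pools held 40366579 to 53984963 reads in genes, so 1 read stood for 0.0175 to 0.0264 CPM. Together the 37 genes made up 0.0680%, 0.0654% and 0.144% of the reads in genes in CKO pools 1 to 3, against 0.0699%, 0.0715% and 0.0895% in WT pools 1 to 3. The 37 genes summed to 612 to 1483 CPM in the 6 pools, beside 23950 to 37008 CPM for 12 markers of astrocytes and radial glia, sums that take no account of gene length. In bulk RNA, fewer cells of a type and less RNA per cell cannot be told apart. The targeted gene Notch2 had 65.1, 116 and 121 CPM in CKO pools 1 to 3, against 99.1, 146 and 302 CPM in WT pools 1 to 3, with a log2 fold change of -0.86 (SE 0.45). Its CKO and WT pools overlapped, and the counts are of the whole gene, not of the floxed part alone.

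Markers of other blood-derived cells were checked beside the microglial genes. The 12 monocyte and neutrophil markers summed to 0.368 to 7.42 CPM in a pool. Of these, Ly6g (neutrophils) had 0 reads in every pool, S100a8 reached 0.0224 CPM at most and Ccr2 (monocytes) 0.246 CPM at most. The monocyte marker Ly6c2 was the highest of the list, with 5.86 CPM in WT pool 1 and 1.24 CPM in CKO pool 3. Chil3 reached 1.07 CPM in WT pool 1. The 13 lymphocyte markers summed to 0.908 to 13.8 CPM. Among them Cd3e had 8.99 CPM in WT pool 3 and Cd4 had 7.11 CPM in CKO pool 3. Macrophages of the brain's borders share most of the 37 genes with microglia, and their 13 markers were present, at 139.7, 105 and 311 CPM in CKO pools 1 to 3, against 80.5, 201 and 138 CPM in WT pools 1 to 3. CKO pool 3 was the highest of the 6 for this list, as it was for the microglial genes, and 8 of the 13 markers were at their highest there. The mannose receptor Mrc1, a defining marker of border macrophages, had 33.9, 26.2 and 67.8 CPM in CKO pools 1 to 3, against 7.14, 49.6 and 0.502 CPM in WT pools 1 to 3. The label microglial therefore stands for genes that these macrophages also express, and the part of border macrophages in the values was not tested.

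Promoters are shown for 6 genes on which the results below turn. They come from the RefSeq table for GRCm38.p6, which held windows for 27 of the 37 genes, and each runs from 250 bases before to 50 bases after the transcription start. Capitals mark GAGGAA, the core of the sequence bound by Spi1 (PU.1), or TTCCTC where it lies on the opposite strand. C1qb (chr4:136886151-136886450, minus strand) and C1qc (chr4:136892865-136893164, minus strand) are the complement chains with the highest and the lowest level per length. P2ry13 (chr3:59210833-59211132, minus strand) and P2ry12 (chr3:59262936-59263235, minus strand) are neighbouring ADP receptors. Fcgr1 (chr3:96293920-96294219, minus strand) had the largest log2 fold change of the 37 genes, and Lpcat2 (chr8:92855083-92855382, plus strand) ran most against the others across libraries.
C1qb: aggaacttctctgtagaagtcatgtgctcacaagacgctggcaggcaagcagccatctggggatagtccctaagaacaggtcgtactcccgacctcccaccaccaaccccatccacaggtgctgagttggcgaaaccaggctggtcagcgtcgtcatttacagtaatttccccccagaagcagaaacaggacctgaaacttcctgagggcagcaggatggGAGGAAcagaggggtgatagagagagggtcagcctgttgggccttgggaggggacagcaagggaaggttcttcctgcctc
C1qc: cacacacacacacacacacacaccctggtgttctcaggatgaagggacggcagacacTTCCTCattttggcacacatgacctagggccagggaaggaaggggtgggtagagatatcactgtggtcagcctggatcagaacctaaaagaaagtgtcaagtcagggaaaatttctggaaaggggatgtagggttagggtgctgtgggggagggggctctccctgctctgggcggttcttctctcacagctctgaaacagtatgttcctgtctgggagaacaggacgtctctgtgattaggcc
P2ry13: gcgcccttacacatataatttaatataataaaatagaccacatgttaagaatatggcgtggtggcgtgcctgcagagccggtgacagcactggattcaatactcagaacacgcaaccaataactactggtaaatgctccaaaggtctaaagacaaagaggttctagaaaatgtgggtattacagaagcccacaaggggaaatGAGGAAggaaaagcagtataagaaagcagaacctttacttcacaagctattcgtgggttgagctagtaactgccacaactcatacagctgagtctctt
P2ry12: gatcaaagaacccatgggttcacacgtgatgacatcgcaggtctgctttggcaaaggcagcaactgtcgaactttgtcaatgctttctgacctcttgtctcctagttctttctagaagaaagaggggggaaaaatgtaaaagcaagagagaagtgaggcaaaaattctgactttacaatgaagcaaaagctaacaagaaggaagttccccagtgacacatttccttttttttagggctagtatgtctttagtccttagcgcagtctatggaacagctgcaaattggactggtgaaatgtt
Fcgr1: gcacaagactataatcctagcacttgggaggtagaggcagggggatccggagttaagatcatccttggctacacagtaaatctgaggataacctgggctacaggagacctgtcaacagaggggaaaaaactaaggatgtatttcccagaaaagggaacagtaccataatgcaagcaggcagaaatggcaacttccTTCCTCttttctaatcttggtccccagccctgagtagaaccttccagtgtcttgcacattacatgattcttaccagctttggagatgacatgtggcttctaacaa
Lpcat2: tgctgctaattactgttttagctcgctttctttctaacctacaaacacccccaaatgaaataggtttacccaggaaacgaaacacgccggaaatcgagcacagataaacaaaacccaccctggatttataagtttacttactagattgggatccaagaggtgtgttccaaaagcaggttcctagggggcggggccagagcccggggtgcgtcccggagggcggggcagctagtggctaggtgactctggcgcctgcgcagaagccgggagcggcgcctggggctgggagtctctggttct
GAGGAA, read on both strands, stood in the window of 16 of the 27 genes (59.3%), against 31.3% of the 27025 genes in the table. The longer GAGGAAGT, which contains it, stood in 4 of the 27 (14.8%), namely C1qc, Cd53, Ctss and Hpgds, against 3.69% of all genes. Among the 6 shown, P2ry12 and Lpcat2 hold no GAGGAA in this window. A match of letters is a description of the window, not a measured binding site.

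The microglial genes varied widely from pool to pool within each genotype. CKO pool 3 had the highest level of most of them, from the receptors P2ry12 and Cx3cr1 to the C1q chains and the lysosomal genes Lyz2, Ctss and Cd68, while WT pool 3 had next to no reads of several, such as Tmem119, Aif1 and P2ry13. Irf8, Fcgr1 and Cd14 were the genes whose CKO pools all lay above the WT pools. No gene of the 37 passed an adjusted p of 0.05 between CKO and WT pools in edgeR's quasi-likelihood test, whose adjusted p ran from 0.790 to 0.996 over them. The background was also 0% of the 21477 genes. At an unadjusted p under 0.05 the same test had 1 of the 37, Fcgr1, where 5.91% of all genes passed (3.01% higher and 2.9% lower in CKO), and DESeq2, which called 129 genes of all those tested (0.608%), called none of the 37. DESeq2 put 2 of the 37 under an unadjusted p of 0.05, beside 9.44% of all genes in that fit, and limma-voom 1, beside 5.87%. The log2 fold change of CKO over WT was above 0 for 26 genes and below 0 for 11, with a median of 0.30, while 47.2% of all genes lay above 0 with a median of -0.06. Without CKO pool 3, 18 of the 37 lay above 0, and their median was -0.17 against -0.01 over all genes. In those 3 genes every CKO pool lay above every WT pool, which held for 7.67% of all genes, and in 0 every CKO pool lay below, which held for 8.17%. With 3 pools against 3, an exact permutation test cannot go below a p of 0.1.

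**Figure D1:**
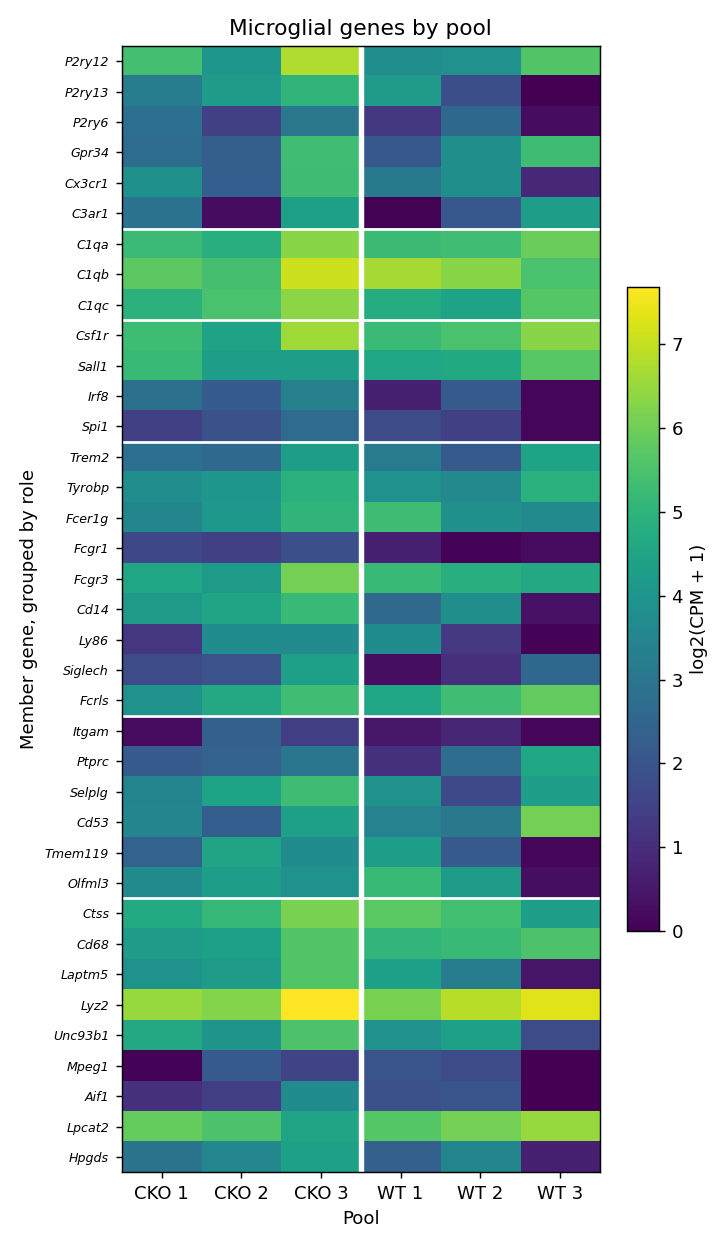
Level of each of the 37 genes in the 6 pools (columns, CKO pools left of WT pools), as the colour of log2(CPM + 1), with genes grouped by role. CKO pool 3 holds the highest value of 25 genes, and WT pool 3 the lowest of 16.

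The spread among the 3 pools of a genotype was wide. The coefficient of variation over the 6 pools ran from 38.2% to 137% for a single gene. The summed level of the 37 genes was 643, 612 and 1483 CPM in CKO pools 1 to 3, against 727, 709.8 and 955 CPM in WT pools 1 to 3. Only CKO pool 3 stood apart, above all 5 other pools, and the other CKO pools lay below all 3 WT pools. The sum averaged 913 ± 494 CPM in CKO pools and 797 ± 137 CPM in WT pools (SD, n = 3 each), a log2 ratio of 0.19 with CKO pool 3 and of -0.35 without it. CKO pool 3 was also the highest for the 12 markers of astrocytes and radial glia. These had 25312, 23950 and 37008 CPM in CKO pools 1 to 3, against 24835, 26034 and 27100 CPM in WT pools 1 to 3. The 8 markers of oligodendrocyte precursors were lowest there, at 1176 CPM.

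The share of genes at their highest or lowest in a pool is given beside the same share over all genes tested. CKO pool 3 held the highest value of 25 of the 37 genes (67.6%), where it held the highest of 12.6% of all genes tested. WT pool 3 held the lowest value of 16 (43.2%, against 28.8% of all genes) and the highest of 6 (16.2%, against 24.5% of all genes). In WT pool 3, 7 genes had 3 reads or fewer, namely P2ry13, Irf8, Ly86, Itgam, Tmem119, Mpeg1 and Aif1. Over all 6 pools, 9 of the 37 genes had a pool at 3 reads or fewer.

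**Figure D2:**
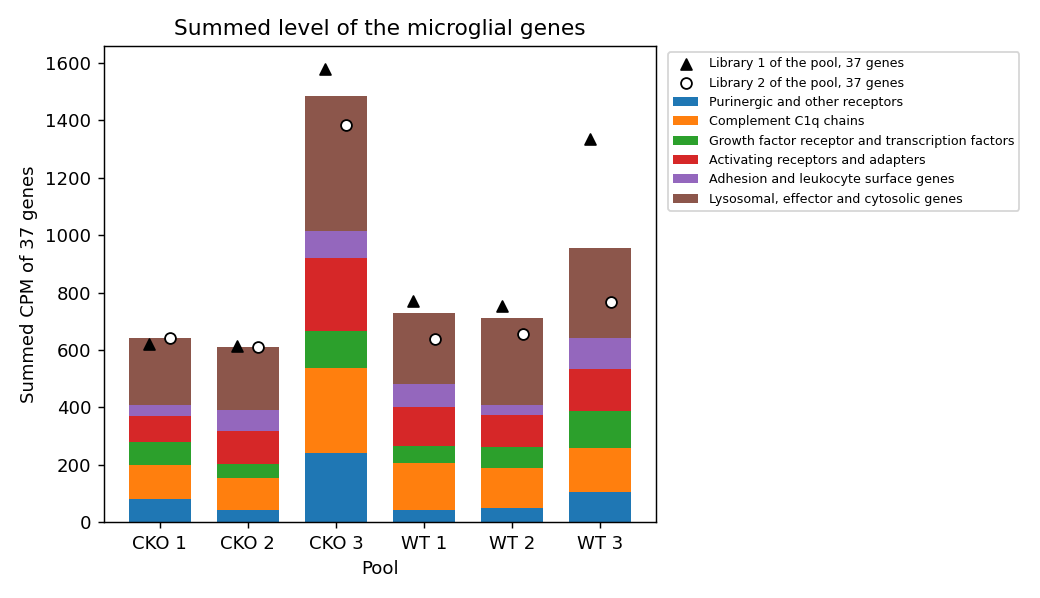
Summed CPM of the 37 genes in each pool, CKO pools left of WT pools, as bars stacked by role from 0, with a triangle for library 1 and a circle for library 2 of the pool. CKO pool 3 is the highest at 1483 CPM, and both of its libraries lie above the libraries of the other CKO pools.

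The libraries of a pool repeat its measurement, and they differed more in some pools than in others. CKO pool 3 was high in both of its libraries, at 1579.9 and 1382.1 CPM summed over the 37 genes. In WT pool 3 the libraries parted, at 1335 and 769 CPM. Among genes with at least 1 CPM in a pool, 1 library held over 90% of the signal in 37 of 197 gene and pool pairs (18.8%). By pool this was 5 of 35, 7 of 36 and 1 of 37 genes in CKO pools 1 to 3, against 7 of 32, 9 of 35 and 8 of 22 in WT pools 1 to 3. Over all genes at that level the shares were 5.47%, 12.2% and 9.44% in CKO pools 1 to 3, against 11.1%, 7.68% and 31.5% in WT pools 1 to 3.

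In WT pool 3 some genes were read in a single library. Cd53 had 2532 reads in library 1 and 1 in library 2. C3ar1 had 698 and 0, Trem2 795 and 3, and P2ry12 1726 and 77 reads. Ctss went the other way, with 9 reads in library 1 and 687 in library 2, as did Selplg with 5 and 699. Genes of the same cell type were thus present in one library of that pool and near 0 in the other, in both directions. Lyz2 (2991 and 2913 reads) and C1qa (1162 and 1099 reads) were close in the same pair of libraries.

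**Figure D3:**
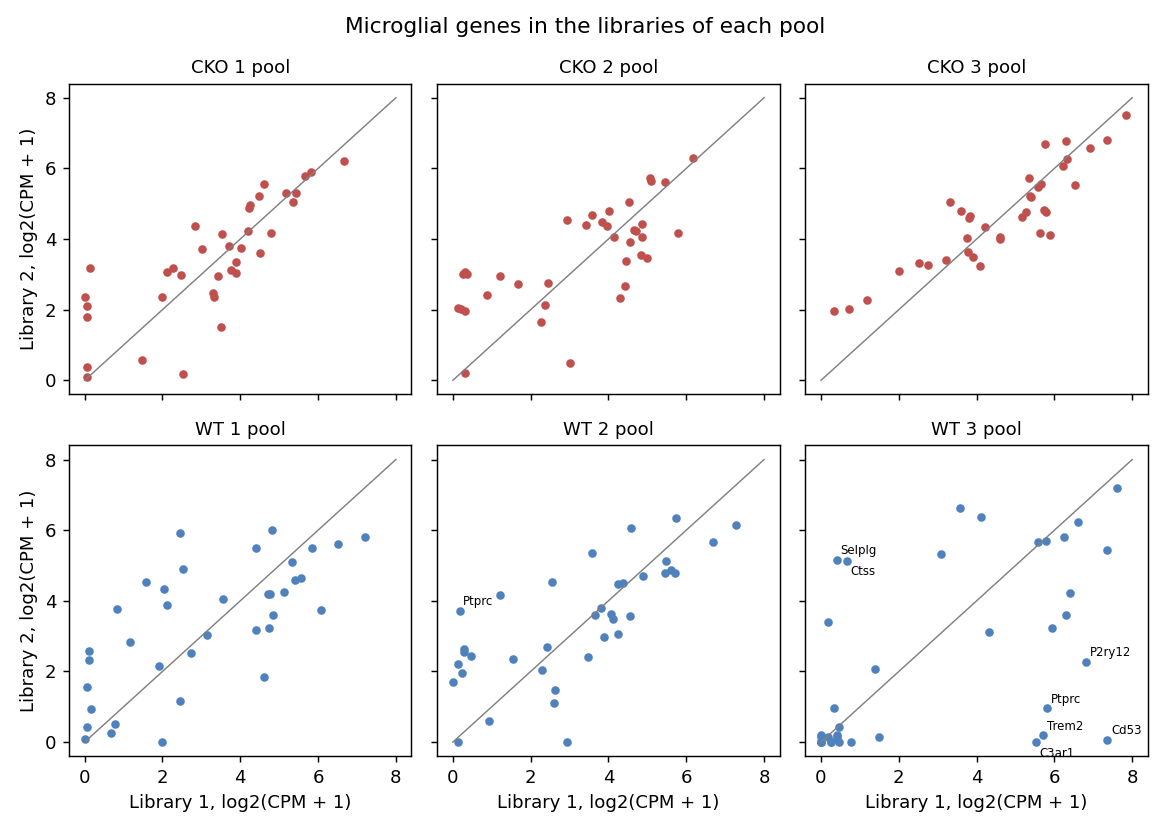
Level of the 37 genes in library 1 (x axis) and library 2 (y axis) of each pool, both as log2(CPM + 1), with 1 panel per pool and a line where both are equal. Genes of CKO pool 3 lie near the diagonal, and in WT pool 3 Cd53, C3ar1 and Trem2 lie far below it and Ctss and Selplg far above it.

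The purinergic and other ligand receptors read signals from damaged cells. P2ry12, the ADP receptor that steers microglial processes towards an injury, had 41.1, 15.4 and 107 CPM in CKO pools 1 to 3, against 12.7, 13.8 and 47.7 CPM in WT pools 1 to 3. CKO pool 3 was the highest and WT pool 3 the next, so the genotypes overlapped. P2ry12 averaged 54.5 ± 47.3 CPM in CKO pools and 24.7 ± 19.9 CPM in WT pools (SD, n = 3 each). Its log2 fold change was 1.14 (SE 0.80), with 0.23 without CKO pool 3 and 2.04 without WT pool 3. P2ry13, a related ADP receptor that lies beside P2ry12 within the gene Med12l, had 8.39, 17.97 and 31.5 CPM in CKO pools 1 to 3, against 16.7, 2.57 and 0 CPM in WT pools 1 to 3. WT pool 1 was above CKO pool 1, and WT pool 3 had no read, which at 3 reads allows up to 0.0793 CPM. The fractalkine receptor Cx3cr1 had 13.4, 3.94 and 38.5 CPM in CKO pools 1 to 3, against 7.68, 13.05 and 0.793 CPM in WT pools 1 to 3, a log2 fold change of 1.37 (SE 1.10), with 0.33 without CKO pool 3 and 2.22 without WT pool 2. CKO pool 2 lay below WT pools 1 and 2, and the order was again led by CKO pool 3.

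Gpr34, a receptor for lysophosphatidylserine, had 5.57, 4.05 and 38.8 CPM in CKO pools 1 to 3, against 3.30, 13.1 and 37.9 CPM in WT pools 1 to 3. Pool 3 was the highest of both genotypes, and the log2 fold change of -0.16 (SE 1.11) turned to 0.98 without WT pool 3. C3ar1, the receptor of the complement fragment C3a, had 6.60, 0.201 and 19.7 CPM in CKO pools 1 to 3, against 0.0395, 3.25 and 18.5 CPM in WT pools 1 to 3. In both genotypes pool 3 was the highest and another pool was near 0. P2ry6, the UDP receptor that starts engulfment, had 6.00, 1.72 and 7.32 CPM in CKO pools 1 to 3, against 1.36, 4.87 and 0.185 CPM in WT pools 1 to 3, with WT pool 2 inside the CKO range. All 6 receptors were at their highest in CKO pool 3, and 5 of the 6 log2 fold changes were above 0.

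The 3 chains of C1q are made together, since each C1q molecule needs all of them, and their genes stand side by side on chromosome 4 (GRCm38), with C1qc in the middle. C1qa had 36.4, 27.4 and 78.1 CPM in CKO pools 1 to 3, against 37.5, 39.4 and 59.8 CPM in WT pools 1 to 3. C1qb had 52.7, 41.7 and 136 CPM in CKO pools 1 to 3, against 99.7, 78.5 and 43.5 CPM in WT pools 1 to 3. C1qc had 29.5, 43.1 and 80.7 CPM in CKO pools 1 to 3, against 25.99, 20.9 and 49.2 CPM in WT pools 1 to 3. All 3 genes were at their highest in CKO pool 3 and none separated the genotypes. Their log2 fold changes were 0.053 (SE 0.45) for C1qa, 0.056 (SE 0.52) for C1qb and 0.67 (SE 0.49) for C1qc. Without CKO pool 3 they were -0.48 for C1qa, -0.60 for C1qb and 0.21 for C1qc. C1qb averaged 76.9 ± 51.6 CPM in CKO pools and 73.9 ± 28.4 CPM in WT pools (SD, n = 3 each). Per kilobase of exon the mean over the 6 pools was 69.3 CPM for C1qb, 44.6 for C1qa and 21.5 for C1qc. Only Lyz2 was higher than C1qb on that scale, at 89.6 CPM per kilobase. The summed level of the 3 chains had no pool under 112 CPM.

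Csf1r, the receptor kinase on which microglia depend, had 37.8, 20.9 and 95.5 CPM in CKO pools 1 to 3, against 36.8, 43.00 and 79.1 CPM in WT pools 1 to 3. The genotypes overlapped throughout and the log2 fold change was -0.042 (SE 0.59). Csf1r averaged 51.4 ± 39.1 CPM in CKO pools and 52.96 ± 22.8 CPM in WT pools (SD, n = 3 each). About 14.3% of its 50-base windows also occur in the overlapping gene Hmgxb3, so a share of its reads is uncertain. Irf8, a transcription factor of the myeloid lineage, had 6.09, 3.74 and 9.11 CPM in CKO pools 1 to 3, against 0.592, 3.63 and 0.0793 CPM in WT pools 1 to 3. All CKO pools were above all WT pools, although CKO pool 2 exceeded WT pool 2 by little and WT pool 3 rested on 3 reads. The log2 fold change was 2.14 (SE 1.23) with an unadjusted p of 0.126 and an adjusted p of 0.794 in edgeR, and the exact permutation p was 0.1. Without WT pool 2 the Irf8 value was 4.29. Spi1, which encodes PU.1, had 1.77, 2.73 and 5.50 CPM in CKO pools 1 to 3, against 2.39, 1.74 and 0.106 CPM in WT pools 1 to 3, and WT pools 1 and 2 lay within the CKO range. In CKO pool 1 and WT pools 1 and 2 a single library held nearly all Spi1 reads, with 1 and 100 in CKO pool 1, against 2 and 119 in WT pool 1.

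Sall1, a zinc finger factor of microglial identity that neural cells can express as well, behaved apart from most of the rest. It had 35.9, 18.4 and 18.7 CPM in CKO pools 1 to 3, against 21.9, 24.6 and 50.2 CPM in WT pools 1 to 3, with CKO pools 2 and 3 the lowest and WT pool 3 the highest. The value of WT pool 3 came mostly from library 2, with 16.4 CPM of Sall1 in library 1 and 81.7 CPM in library 2. Lpcat2, an acyltransferase that makes platelet-activating factor, had 57.8, 45.7 and 21.5 CPM in CKO pools 1 to 3, against 49.7, 65.8 and 88.6 CPM in WT pools 1 to 3, with CKO pool 3 the lowest and WT pool 3 the highest. In WT pool 3 Lpcat2 had 161 CPM in library 1 and 42.6 CPM in library 2. Of the 50-base windows of Lpcat2, 6.95% also occur in the overlapping gene Gm45472. Sall1 and Lpcat2 were singled out after their values were seen. Their log2 fold changes were -0.40 (SE 0.47) for Sall1 and -0.71 (SE 0.42) for Lpcat2, and neither passed the test. Over the 12 libraries, Pearson's r of log2(CPM + 1) with the mean of the other 36 genes was -0.44 for Sall1 and -0.60 for Lpcat2. The highest were Aif1 at 0.79, Cx3cr1 at 0.77 and Laptm5 at 0.72. Other genes also followed the rest little, with -0.08 for Fcrls, 0.04 for Cd68, 0.21 for Ptprc and 0.25 for Csf1r. The libraries come in pairs from 6 pools and differ in depth, so this is a description. The 8 markers of oligodendrocyte precursors also summed lowest in CKO pool 3, at 3384, 2672 and 1176 CPM in CKO pools 1 to 3, against 1722, 2435 and 3068 CPM in WT pools 1 to 3, and their part in the Lpcat2 and Sall1 values was not tested.

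**Figure D4:**
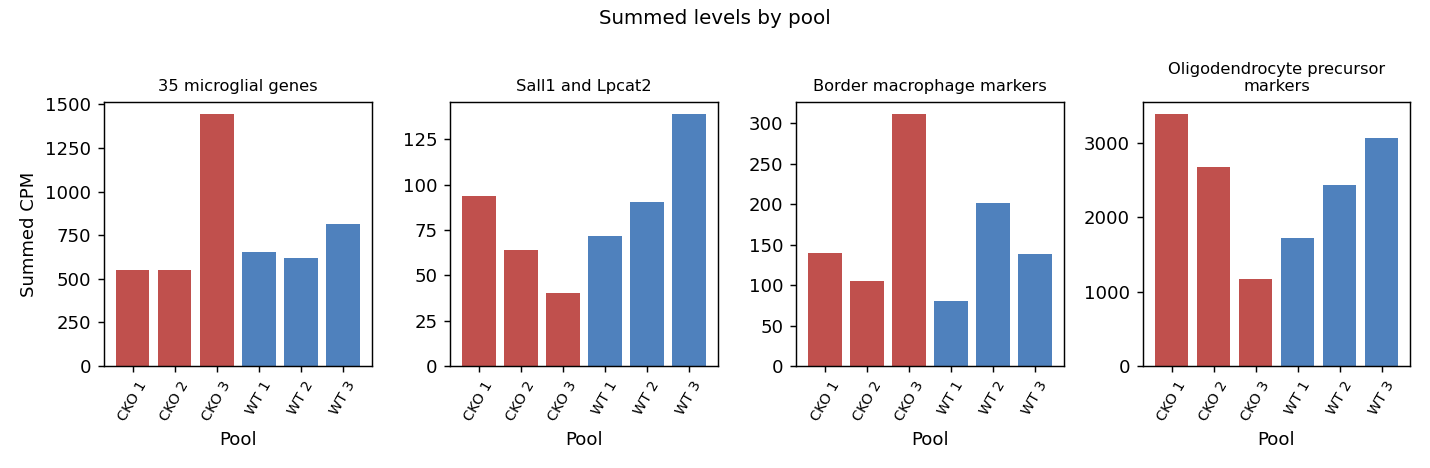
Summed CPM in each pool, CKO pools left of WT pools, in 4 panels with axes of their own that start at 0: the 35 microglial genes other than Sall1 and Lpcat2, the sum of Sall1 and Lpcat2, the border macrophage markers and the oligodendrocyte precursor markers. CKO pool 3 is the highest pool for the 35 genes (1443 CPM) and the border macrophage markers (311 CPM), and the lowest for Sall1 with Lpcat2 (40.2 CPM) and for the precursor markers (1176 CPM).

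Of the 9 activating receptors and adapters, 6 had a log2 fold change above 0 and 5 were highest in CKO pool 3. Trem2, a lipid receptor of microglia, had 5.92, 5.15 and 18.7 CPM in CKO pools 1 to 3, against 7.82, 3.56 and 21.1 CPM in WT pools 1 to 3. Its adapter Tyrobp had 12.7, 15.2 and 29.03 CPM in CKO pools 1 to 3, against 13.9, 11.4 and 28.9 CPM in WT pools 1 to 3. For both genes pool 3 was the highest of each genotype, and the log2 fold changes were -0.12 (SE 0.82) for Trem2 and 0.071 (SE 0.53) for Tyrobp. Fcer1g, the common gamma chain of Fc receptors, had 10.5, 16.1 and 31.6 CPM in CKO pools 1 to 3, against 37.9, 13.5 and 11.7 CPM in WT pools 1 to 3, with WT pool 1 above every CKO pool. The log2 fold change of Fcer1g was -0.12 (SE 0.62), smaller than its standard error.

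Fcgr1, the high-affinity receptor for IgG, had 2.19, 1.77 and 2.67 CPM in CKO pools 1 to 3, against 0.592, 0.0471 and 0.159 CPM in WT pools 1 to 3. Every CKO pool was above every WT pool, at low levels throughout. Its log2 fold change was 3.03 (SE 1.08), with an unadjusted p of 0.0257 and an adjusted p of 0.790 in edgeR and an exact permutation p of 0.1. Without WT pool 1 the Fcgr1 value was 4.41. Library 2 carried most of its reads, with 125, 77 and 106 reads in CKO pools 1 to 3, against 27, 0 and 0 in WT pools 1 to 3. Library 1 had 0, 2 and 30 reads in CKO pools 1 to 3, against 3, 2 and 6 in WT pools 1 to 3, and there the genotypes overlapped. Fcgr3, a low-affinity receptor for IgG, had 22.1, 17.3 and 67.01 CPM in CKO pools 1 to 3, against 35.4, 26.96 and 23.7 CPM in WT pools 1 to 3, and its 2 lower CKO pools lay below all WT pools. Of the 50-base windows of Fcgr3, 9.58% also occur in Fcgr2b.

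Cd14, the co-receptor for bacterial lipopolysaccharide, had 16.5, 21.2 and 35.6 CPM in CKO pools 1 to 3, against 5.33, 13.02 and 0.291 CPM in WT pools 1 to 3. It was the third gene with every CKO pool above every WT pool, with a log2 fold change of 1.97 (SE 1.09), an unadjusted p of 0.113 and an adjusted p of 0.790 in edgeR, and an exact permutation p of 0.1. The log2 fold change was 1.41 without WT pool 3 and 3.20 without WT pool 2. Siglech, a sialic acid-binding lectin, had 2.40, 2.89 and 18.98 CPM in CKO pools 1 to 3, against 0.217, 1.04 and 5.10 CPM in WT pools 1 to 3, with WT pool 3 above CKO pools 1 and 2. Ly86, the partner of the Toll-like receptor relative Cd180, had 1.31, 12.3 and 12.2 CPM in CKO pools 1 to 3, against 12.3, 1.44 and 0.0529 CPM in WT pools 1 to 3, and both genotypes held pools far apart. Fcrls, an Fc receptor-like protein used as a microglial marker, had 14.01, 23.9 and 39.4 CPM in CKO pools 1 to 3, against 22.1, 39.1 and 56.2 CPM in WT pools 1 to 3 and a log2 fold change of -0.60 (SE 0.50), with WT pool 3 the highest.

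**Figure D5:**
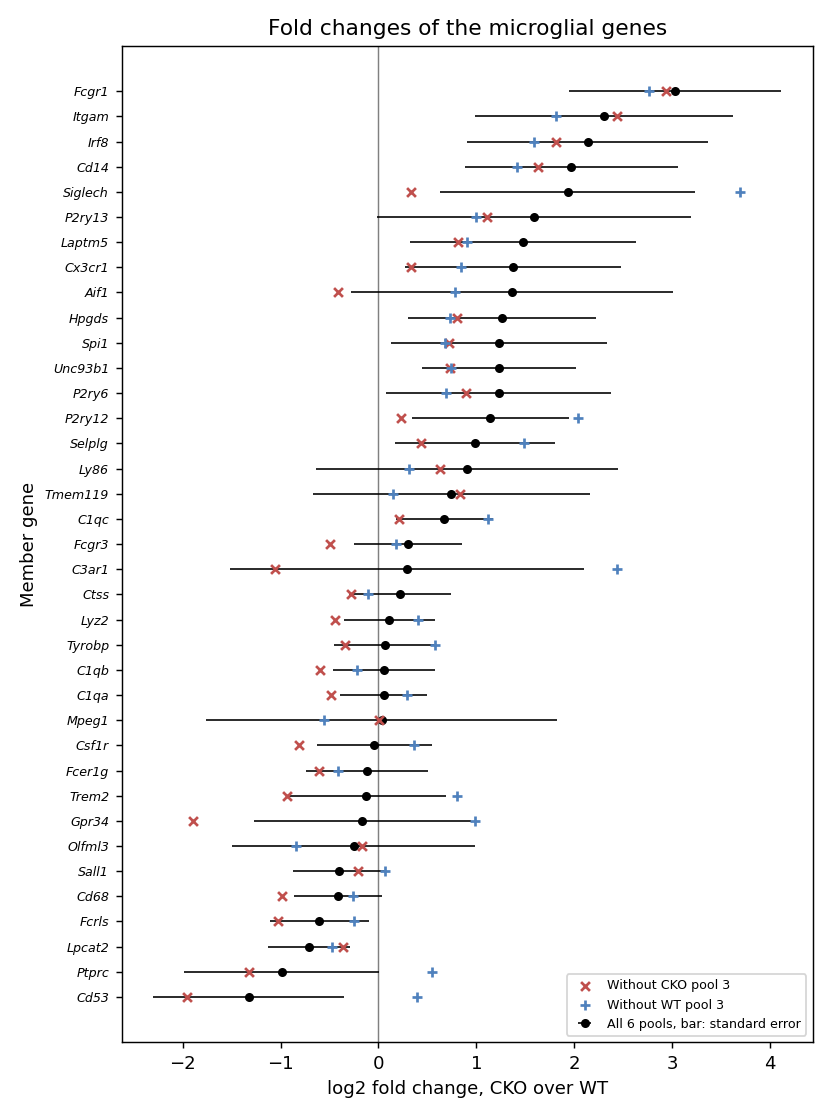
Log2 fold change of CKO over WT pools for each of the 37 genes, with bars of 1 SE, from the edgeR fit (n = 3 pools per genotype), beside the value without CKO pool 3 and the value without WT pool 3. 26 genes lie above 0, Fcgr1 is the highest at 3.03 and Cd53 the lowest at -1.33, and for many genes the bar crosses 0.

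Of the 6 adhesion and leukocyte surface genes, 3 had a log2 fold change above 0 and 1, Selplg, was highest in CKO pool 3. Ptprc (CD45), the phosphatase found on all leukocytes, had 3.62, 4.30 and 7.13 CPM in CKO pools 1 to 3, against 1.14, 5.75 and 23.02 CPM in WT pools 1 to 3. Cd53, a tetraspanin of leukocytes, had 10.2, 3.92 and 19.3 CPM in CKO pools 1 to 3, against 9.53, 7.49 and 66.96 CPM in WT pools 1 to 3. Both were highest in WT pool 3, where library 1 held nearly all of their reads, and their log2 fold changes of -0.99 (SE 0.99) and -1.33 (SE 0.98) became 0.54 for Ptprc and 0.39 for Cd53 without that pool. Tmem119, a membrane protein that separates microglia from most other macrophages, had 4.32, 21.4 and 12.1 CPM in CKO pools 1 to 3, against 18.9, 3.56 and 0.0793 CPM in WT pools 1 to 3. Olfml3, a secreted protein also used for that purpose, had 11.6, 18.4 and 14.1 CPM in CKO pools 1 to 3, against 35.3, 17.1 and 0.211 CPM in WT pools 1 to 3. WT pool 1 was high for both and WT pool 3 nearly empty, and the CKO and WT pools overlapped. Selplg, the ligand of P-selectin, had 9.98, 20.9 and 38.3 CPM in CKO pools 1 to 3, against 14.1, 2.26 and 18.6 CPM in WT pools 1 to 3, and its CKO and WT pools overlapped. Itgam (CD11b) had 0.175, 4.14 and 1.69 CPM in CKO pools 1 to 3, against 0.395, 0.730 and 0.0793 CPM in WT pools 1 to 3, with CKO pool 1 below WT pools 1 and 2, and 66.3% of its 50-base windows also occur in the annotated gene Gm49368, which had no row in the tables.

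Of the 9 lysosomal, effector and cytosolic genes, 7 had a log2 fold change above 0 and 7 were highest in CKO pool 3. Lyz2, the lysozyme of macrophages and the highest of the 37 genes per length, had 88.3, 74.8 and 204 CPM in CKO pools 1 to 3, against 69.3, 115 and 156 CPM in WT pools 1 to 3. CKO pool 3 was the highest and the others overlapped, for a log2 fold change of 0.11 (SE 0.47). Lyz1 shares 15.4% of the 50-base windows of Lyz2. Ctss, the protease cathepsin S, had 24.7, 33.9 and 69.6 CPM in CKO pools 1 to 3, against 51.5, 40.1 and 18.4 CPM in WT pools 1 to 3, and its WT pool 3 rested on library 2. Cd68, a lysosomal membrane glycoprotein, had 17.8, 19.5 and 47.9 CPM in CKO pools 1 to 3, against 32.5, 35.4 and 45.6 CPM in WT pools 1 to 3, so CKO pools 1 and 2 lay below every WT pool and CKO pool 3 above every one. Laptm5, a lysosomal membrane protein of blood-derived cells, had 13.9, 17.7 and 46.9 CPM in CKO pools 1 to 3, against 19.2, 8.64 and 0.344 CPM in WT pools 1 to 3, with WT pool 3 close to 0 and WT pool 1 above CKO pools 1 and 2.

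Aif1, the protein stained as Iba1, had 1.12, 1.68 and 12.01 CPM in CKO pools 1 to 3, against 2.78, 2.97 and 0 CPM in WT pools 1 to 3. Without CKO pool 3 its log2 fold change of 1.36 (SE 1.65) turned to -0.41. Unc93b1, which carries Toll-like receptors to endosomes, had 23.7, 14.6 and 45.5 CPM in CKO pools 1 to 3, against 13.8, 19.6 and 2.38 CPM in WT pools 1 to 3, and WT pool 3 was the lowest. Hpgds, a prostaglandin D synthase, had 6.76, 10.7 and 19.4 CPM in CKO pools 1 to 3, against 4.16, 10.6 and 0.608 CPM in WT pools 1 to 3, and CKO pool 3 was the highest. Mpeg1, a pore-forming protein of macrophages, had 0.0525, 3.47 and 1.98 CPM in CKO pools 1 to 3, against 2.96, 2.40 and 0 CPM in WT pools 1 to 3, and pool 1 of CKO and pool 3 of WT were both near 0. None of these genes separated the genotypes.

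On the scale of CPM per kilobase of exon, the order over the 6 pools was led by Lyz2 (89.6), C1qb (69.3), C1qa (44.6), Ctss (29.2), Tyrobp (27.8), Cd68 (26.3) and Fcer1g (23.2). The lowest were Fcgr1 (0.478), Mpeg1 (0.418), Ptprc (0.409) and Itgam (0.239). They encode lysozyme, complement chains, lysosomal proteins and signalling adapters at the top, and receptors, a pore-forming protein and an integrin chain at the bottom. Neighbours in that order such as Ctss, Tyrobp and Cd68 do not differ beyond the spread over pools. Exon length was the union of all annotated exons of a gene, 18313 bases for Ptprc. Genes with many annotated exons can therefore rank lower than the length of a single transcript would place them.

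By position, 7 of the 37 genes are on chromosome 3, which also holds the floxed gene Notch2. Measured between the lower coordinates of the genes, Fcgr1 lies 1.73 Mb from Notch2, Ctss 2.49 Mb, Olfml3 5.71 Mb, Cd53 8.75 Mb and Fcrls 10.8 Mb. P2ry12 and P2ry13 are 38.8 Mb away (GRCm38, GENCODE M21). The log2 fold changes of these genes lay on both sides of 0, from -1.33 for Cd53 to 3.03 for Fcgr1.

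A further list of 60 genes enriched in microglia, with no gene of the 37, gave sums of 996, 905 and 1416 CPM in CKO pools 1 to 3, against 815, 911 and 1062 CPM in WT pools 1 to 3. CKO pool 3 was again the highest. The log2 ratio of the summed level was 0.25 with CKO pool 3 and 0.03 without it. Of the 57 tested, 43 log2 fold changes were above 0 and 14 below, with a median of 0.52, while 47.2% of all genes lay above 0. edgeR called 0 of them at an adjusted p of 0.05 and 0 reached an unadjusted p under 0.05, where 5.91% of all genes did. The list is led by genes that astroglia also express, such as Mertk, a receptor for dying cells, with 192, 153 and 214 CPM in CKO pools 1 to 3, against 159, 183 and 214 CPM in WT pools 1 to 3. Adgre1 (F4/80), a macrophage surface receptor, had 18.5, 6.96 and 39.2 CPM in CKO pools 1 to 3, against 1.72, 16.7 and 0.0529 CPM in WT pools 1 to 3. Adgre1 was highest in CKO pool 3 and lowest in WT pool 3, and the genotypes overlapped.

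Of 15 other transcription factors used by microglia, 12 were tested and 5 lay above 0. Runx1 alone reached an unadjusted p under 0.05 in edgeR, with a higher level in CKO pools. Over all genes tested, 5.91% reached that level (3.01% higher and 2.9% lower in CKO), and 47.2% had a log2 fold change above 0. Of 33 genes tied to microglial activation, 28 were tested, 7 lay above 0 and 21 below. Cd9 and Ccl9 were lower in CKO at an unadjusted p under 0.05, as were 2.9% of all genes, and none passed the adjusted threshold in edgeR. Of 3 markers of the disease-associated state looked at singly, Cst7 reached 0.447 CPM at most and Itgax 0.851 CPM. Clec7a had 3.80, 0.381 and 0.0196 CPM in CKO pools 1 to 3, against 0, 0.0235 and 0 CPM in WT pools 1 to 3, so only CKO pool 1 stood above 1 CPM. Apoe, which is tied to that state but abundant in astrocytes, had 20794, 17935 and 27773 CPM in CKO pools 1 to 3, against 33072, 28564 and 21276 CPM in WT pools 1 to 3.

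The ligands of microglial receptors are mostly made by other brain cells. All 10 were tested and 0 were called by edgeR, while 3 had an unadjusted p under 0.05, a level that 5.91% of all genes reached (3.01% higher and 2.9% lower), namely Csf1 and Pros1 on the higher and Il34 on the lower side in CKO. Csf1, a ligand of Csf1r, had 35.7, 43.8 and 35.7 CPM in CKO pools 1 to 3, against 8.94, 21.8 and 2.59 CPM in WT pools 1 to 3. Every CKO pool was above every WT pool, with a log2 fold change of 1.79 (SE 0.71), an unadjusted p of 0.0394 and an adjusted p of 0.790 in edgeR. Il34, the second ligand of Csf1r, had 0.333, 0.134 and 0.0981 CPM in CKO pools 1 to 3, against 2.78, 0.353 and 2.38 CPM in WT pools 1 to 3. Every CKO pool was below every WT pool, at low levels, with a log2 fold change of -3.26 (SE 1.10), an unadjusted p of 0.0206 and an adjusted p of 0.790 in edgeR. Cx3cl1, the ligand of Cx3cr1, had 107, 62.2 and 57.1 CPM in CKO pools 1 to 3, against 108, 92.8 and 99.6 CPM in WT pools 1 to 3, and the genotypes overlapped. Among 11 other complement genes, 10 were tested, 7 lay above 0 and none reached an unadjusted p under 0.05.

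The genes whose levels ran most like the mean of the 37 across the 12 libraries, among 12258 genes with enough reads, were Sdc4, a heparan sulphate proteoglycan (r = 0.93), Jade1, a chromatin protein (0.93), and Tmem123 (0.87). Sdc4 had 461, 464 and 697 CPM in CKO pools 1 to 3, against 433, 466 and 374 CPM in WT pools 1 to 3. All of the 15 nearest genes were highest in CKO pool 3, and 0 of them belong to the further microglial or the border macrophage list. Those lists do not hold every gene that microglia or macrophages express. Clec10a (r = 0.82), which is on neither list, was among the 15. The 44 further microglial genes that could be compared had a median r of 0.33, against 0.07 over all genes.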

How the data were processed

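Each of 24 runs had a deposited table of raw read counts per gene symbol. The authors made these counts with Bowtie2 and HTSeq on GRCm38, per the submitters' processing notes; versions, annotation and settings are not given in the sources used here. cDNA came from Smart-Seq2 and libraries from Nextera XT, which do not mark strand, so overlapping genes cannot be told apart. The 5 summary lines were left out. Reads outside genes made up 16.0% to 35.3% of a pool, ambiguous reads 2.51% to 3.43% and unaligned reads 11.2% to 21.7%.

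Lanes of a library agreed within sampling noise (chi-square over degrees of freedom 0.986 to 1.01) and were summed. Libraries of a pool did not (70.7 to 351), and were summed as repeat measurements. The pool was the replicate (n = 3 per genotype). Whether pools came from separate animals throughout is not stated, so the p-values speak only of how far these pools vary, which may be technical.

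Genotypes were compared in edgeR 4.0.16 (R 4.3.3) with filterByExpr, TMM, a robust quasi-likelihood fit (common biological coefficient of variation 0.725) and Benjamini-Hochberg adjustment over 21477 genes, at a threshold of 0.05. Alternatives were DESeq2 1.42.0, limma 3.58.1 (voom), other scalings and filters, single libraries, left-out pools and a replicate block. The test was tested on simulated data, and the outcome is not reported here. Permutation tests used log2(CPM + 0.5). The number pairing was checked on log2(CPM + 1). Positions, exon lengths and shared 50-base windows came from GENCODE M21 (GRCm38), which matched all 37 symbols, and promoters from RefSeq.

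All 37 genes are described. Values per pool are given for each, and further lists appear as counts with their leading or defining genes. The 37 genes and all lists were chosen with earlier results of these data known. The tags 19K, 4K and 9K on CKO pools 1 to 3, and 20K, 12K and 2K on WT pools 1 to 3, are not explained in the labels. A counting limit of 3 reads covers counting error only.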

Additional observations from a re-analysis of the deposited data

How the results depend on the processing

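No gene of the 37 was called under any alternative, and edgeR and limma-voom called 0 genes in all, while DESeq2 called 129 (84 higher and 45 lower in CKO). The log2 ratio of the summed level was 0.19, and ran from -0.35 (without CKO pool 3) to 0.41 when 1 pool was left out. With 2 pools in a genotype those fits rest on a spread estimated from the 5 left. The log2 fold change kept its sign for 19 of the 37 genes in every alternative in which they could be tested, and all of the changes of sign below are of values that were not called. The cause was not tested. Spi1, Fcgr1, Itgam and Mpeg1 could not be tested in library 1 alone.

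Library 1 alone gave -1.28 for C3ar1, -0.16 for C1qa, -0.42 for C1qb, 0.16 for Csf1r, 0.31 for Sall1, -0.76 for Tyrobp, 0.22 for Fcrls and -0.11 for Lyz2. Library 2 alone gave 0.54 for Gpr34, 1.55 for Trem2, 0.68 for Fcer1g, -0.11 for Fcgr3, 0.38 for Ptprc, 0.71 for Cd53 and -1.52 for Mpeg1. limma-voom with quality weights gave -0.22 for C1qb, 0.52 for Trem2, 0.037 for Ptprc, 0.25 for Olfml3, -0.093 for Ctss and -1.52 for Mpeg1. Scaling to total reads gave 0.025 for Csf1r, moved the median of all genes from -0.059 to 0.038, and split the genes with an unadjusted p under 0.05 into 808 higher and 389 lower, against 647 and 622 with TMM.

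Leaving out 1 pool gave -0.41 to 1.91 for Aif1, -0.48 to 0.33 for C1qa, -0.60 to 0.35 for C1qb, -1.06 to 2.44 for C3ar1, -1.96 to 0.39 for Cd53, -0.81 to 0.37 for Csf1r, -0.28 to 0.56 for Ctss, -0.61 to 0.63 for Fcer1g and -0.50 to 0.64 for Fcgr3. It gave -1.89 to 0.98 for Gpr34, -0.45 to 0.41 for Lyz2, -0.81 to 0.61 for Mpeg1, -0.84 to 0.78 for Olfml3, -1.51 to 0.54 for Ptprc, -0.78 to 0.066 for Sall1, -0.94 to 0.80 for Trem2 and -0.34 to 0.58 for Tyrobp. Among genes that kept their sign, the range was 0.33 to 2.22 for Cx3cr1, 0.23 to 2.04 for P2ry12, 1.59 to 4.29 for Irf8, 1.41 to 3.20 for Cd14, 2.62 to 4.41 for Fcgr1, -1.02 to -0.25 for Fcrls and -1.01 to -0.36 for Lpcat2.

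Deviations of pools of 1 number were not correlated across genes (r = 0.024, -0.0099 and -0.030 for numbers 1 to 3). Whether such pools had anything in common beyond the number was not tested. With the number as a replicate block, 0 genes were called, 889 had an unadjusted p under 0.05 against 1269 without the block, and the values turned to -0.061 for C1qa, -0.11 for C1qb and 0.83 for Olfml3. Depth limits the low genes: 3 reads stood for 0.0525 to 0.0793 CPM, and 9 of the 37 genes had a pool at or under that count.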
